A study of Mus musculus with 4 samples.

Results

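The peroxisome proliferator-activated receptors (PPARs), the oestrogen-related receptors (ERRs) and the PGC-1 coactivators were followed here through 9 genes in the right ventricle of adult mice labelled Ezh2-deficient. The 9 genes were the receptors Ppara, Ppard, Esrra and Esrrg, the coactivators Ppargc1a and Ppargc1b, and the target genes Ucp2, Ucp3 and Angptl4. They were taken by name from the deposited table of 29595 gene rows, in which each of the 9 had exactly 1 row under its symbol. All 9 passed the filter on low counts, beside 16128 rows in all, with 163 to 4708 reads in a library. RNA was sequenced from the right ventricle of 2 adult Ezh2-deficient mutants (mutant 1 and mutant 3) and 2 adult wild-type mice (wild type 1 and wild type 2), all 4 on a mixed C57BL/6 background and with no treatment named. Ezh2 is the methyltransferase of Polycomb repressive complex 2, and the labels name neither the deleted part of the gene nor a Cre driver. The comparison of mutants with wild types asks how the transcripts of the adult ventricle differ in animals labelled Ezh2-deficient.

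PPARs are lipid-activated nuclear receptors that bind DNA together with a retinoid X receptor and switch on genes of fatty acid uptake and oxidation. ERRs bind related sites without a known natural hormone and, with the PGC-1 coactivators as partners, raise the capacity of mitochondria for oxidative metabolism. The heart draws most of its energy from fatty acids, and PPARα, ERRα, ERRγ and PGC-1 proteins are known as its main regulators of that supply.

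The tables held 18177642 to 23853394 reads in a library. Library preparation with a duplex-specific nuclease lowered the share of abundant transcripts, so differences in highly read genes can appear smaller than they are in the RNA. The Ezh2 row, which cannot show which part of the gene is missing, had 73 and 70 reads in mutants 1 and 3, against 77 and 67 for wild types 1 and 2. The Y-linked Ddx3y had 754 and 659 reads in mutants 1 and 3 against 2 and 2 for the wild types, so genotype and sex cannot be told apart in any value below. Mitochondrially encoded genes made up 40.3% and 47.4% of reads in mutants 1 and 3, and 34.7% and 41.2% for wild types 1 and 2. Heart muscle markers were abundant in all 4 libraries. The 7 genes summed to 45797 and 52707 CPM in mutants 1 and 3, and to 43926 and 40222 CPM in wild types 1 and 2. Both mutants were above both wild types in this sum, in 2 of the 7 genes above and in 2 below. In such bulk RNA, fewer cells of a type and less RNA per cell cannot be told apart.

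All 9 genes had a fitted log2 fold change below 0, most of all the uncoupling protein genes Ucp2 and Ucp3, the coactivator gene Ppargc1b and Angptl4. In edgeR's quasi-likelihood test 0 of the 9 passed an adjusted p of 0.05 over all rows, against 0.13% of all 16128 tested rows (0.0248% called lower). At an unadjusted p under 0.05, 4 of the 9 were lower and 0 higher in the mutants, against 4.38% of all rows lower and 6.49% higher. In 7 of the 9 both mutants were below both wild types, as in 22.4% of all rows. The median log2 fold change of the 9 was -0.57, beside 0.0046 for all tested rows. Because the 9 were chosen with earlier results of these data known, these shares describe the set and do not test it. By DESeq2 2 of the 9, Ucp2 and Ucp3, passed an adjusted p of 0.05, against 1.21% of its rows, and by limma-voom 0 of 9 did. Levels are library-size-scaled read counts (CPM) adjusted by edgeR's trimmed mean of M-values (TMM), and n = 2 in each group.

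**Figure D1:**
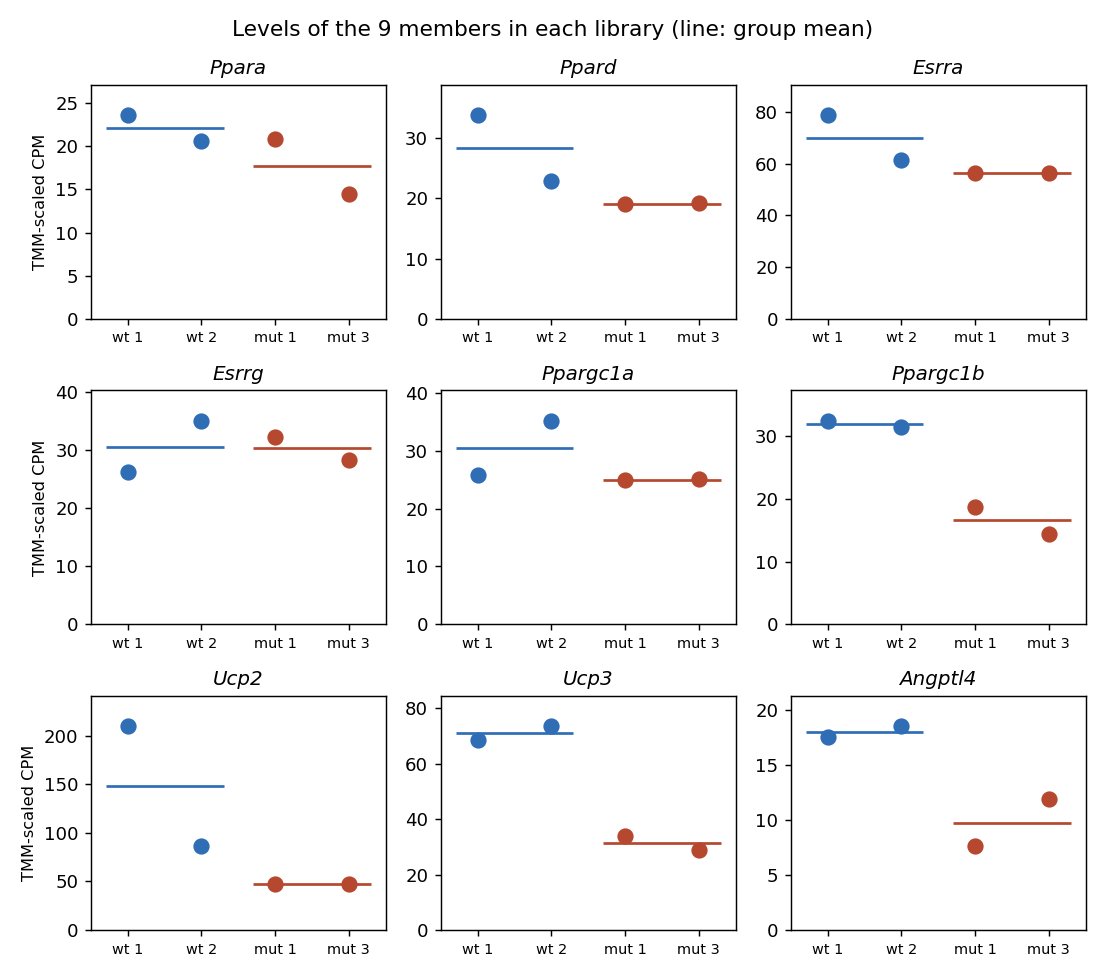
TMM-scaled CPM (vertical axis, from 0) of each of the 9 genes in the 4 libraries, wild types in blue and mutants in red, with a line at each group's mean. Both mutants lie below both wild types in 7 panels, while Ppara and Esrrg overlap.

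Among the receptors, none was called, and the groups were closest for Esrrg. Ppara encodes PPARα, the main PPAR of heart muscle for fatty acid oxidation (mm9, chromosome 15, 85565994 to 85633249). It stood at 20.9 and 14.5 CPM in mutants 1 and 3 and at 23.6 and 20.6 CPM in wild types 1 and 2. Mutant 1 lay at the level of wild type 2, so the groups overlapped, and the gap between the mutants exceeded that between the wild types. Its log2 fold change was -0.32 ± 0.25 (SE, edgeR adjusted p = 0.681), and -0.04 without mutant 3. Ppard encodes PPARδ, which is present in most tissues and shares many targets with PPARα (chromosome 17, 28369699 to 28438414). It was read at 19.1 and 19.2 CPM in mutants 1 and 3 and at 33.8 and 22.8 CPM in wild types 1 and 2. Both mutants were lower than both wild types, but wild type 1 stood 1.48 times as high as wild type 2. The log2 fold change of -0.57 ± 0.25 (edgeR adjusted p = 0.473) became -0.25 without wild type 1 and -0.82 without wild type 2.

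Esrra encodes ERRα, a partner of PGC-1 that drives genes of the respiratory chain and the tricarboxylic acid cycle (chromosome 19, 6985467 to 6996298). It was at 56.5 and 56.4 CPM in mutants 1 and 3 and at 78.6 and 61.4 CPM in wild types 1 and 2. The mutants were nearly alike and sat just under wild type 2. The fitted log2 fold change was -0.31 ± 0.22 (SE, edgeR adjusted p = 0.647). It became -0.12 without wild type 1 and -0.48 without wild type 2. The Esrra row shares 50 bases with 0610038D11Rik on the other strand. Esrrg encodes ERRγ, the ERR that rises in heart around birth and supports its oxidative metabolism (chromosome 1, 189432908 to 190038763). Its level was 32.3 and 28.3 CPM in mutants 1 and 3 and 26.1 and 34.97 CPM in wild types 1 and 2. The wild types enclosed both mutants, and the fitted log2 fold change was -0.01 with a 95% interval from -0.56 to 0.53 (edgeR adjusted p = 0.991). That interval spans differences of up to 0.53 to 0.56 on the log2 scale in either direction.

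Of the PGC-1 coactivator genes, Ppargc1b had the lower fold change. PGC-1β, the product of Ppargc1b, binds ERRs and PPARs and supports the basal number and oxidative capacity of mitochondria (chromosome 18, 61457790 to 61560085). It was at 18.8 and 14.4 CPM in mutants 1 and 3 and at 32.4 and 31.4 CPM in wild types 1 and 2. Both mutants stood far under both wild types, which lay within 1.03 times of each other. The group means were 16.6 ± 3.08 and 31.9 ± 0.723 CPM (SD, n = 2), a log2 fold change of -0.94 ± 0.23 (SE, edgeR adjusted p = 0.225, unadjusted p = 0.00367). DESeq2 gave an adjusted p of 0.0800. It was called without wild type 1 (edgeR adjusted p = 0.00394) and without wild type 2 (0.00212), fits in which 12.2% and 22.0% of all rows were called, and not without mutant 1 (0.746) or mutant 3 (0.9998). Ppargc1a encodes PGC-1α, the coactivator that responds to cold, exercise and fasting (chromosome 5, 51848893 to 51945100). It stood at 24.97 and 25.1 CPM in mutants 1 and 3 and at 25.7 and 35.1 CPM in wild types 1 and 2. The mutants were nearly alike and close under wild type 1, while wild type 2 stood apart. The fitted log2 fold change was -0.28 ± 0.23 (edgeR adjusted p = 0.697), and -0.05 without wild type 2. A second row over the same span, PGC-1v, held the same reads (535, 494, 578 and 698), so PGC-1α isoforms cannot be told apart.

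Setting related genes against each other within a library removes the scaling between libraries, though not the effect of the nuclease. Ppargc1a had 1.33 and 1.74 times the reads of Ppargc1b in mutants 1 and 3 and 0.794 and 1.12 times in wild types 1 and 2. Both mutants were thus above both wild types in this ratio, which draws on the same Ppargc1b reads as above. Among single rows, both mutants were above both wild types in 22.3% and below in 22.4%. The ratio of Ucp2 to Ucp3 was 1.39 and 1.64 in mutants 1 and 3, against 3.05 and 1.17 for wild types 1 and 2, so the mutants lay between the wild types. For Ppara over Ppard (1.09, 0.754, 0.698 and 0.903 in mutants 1 and 3 and wild types 1 and 2) and for Esrra over Esrrg (1.75, 1.99, 3.01 and 1.76) the groups overlapped as well. With 3 ways to split 4 libraries evenly, no exact test of a ratio could reach 0.05, and none was made.

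**Figure D2:**
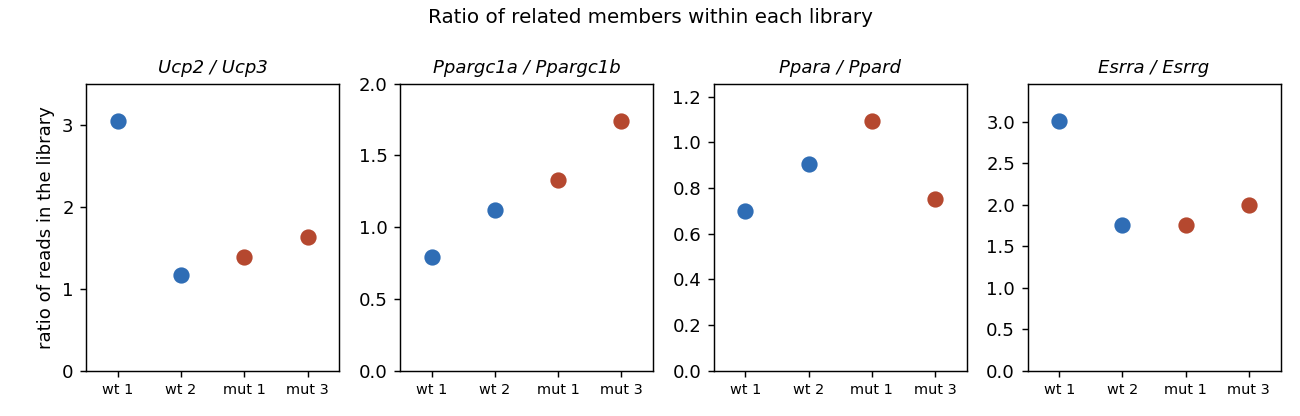
Ratio of the reads of related genes (vertical axis, from 0) in each library, wild types in blue and mutants in red. The ratio of Ppargc1a to Ppargc1b is above 1.3 in both mutants and at most 1.12 in the wild types; the other ratios overlap between the groups.

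Among the target genes, Ucp2 and Ucp3 had the lowest fold changes of the 9. Ucp3 encodes a mitochondrial carrier of skeletal and heart muscle, a known target of PPARs that follows fatty acid supply (chromosome 7, 107621500 to 107634941). It stood at 33.7 and 28.8 CPM in mutants 1 and 3 and at 68.8 and 73.5 CPM in wild types 1 and 2. The groups were far apart and each was tight, at 31.2 ± 3.53 and 71.1 ± 3.36 CPM (SD, n = 2), so that wild types were 2.28 times as high. This gave a log2 fold change of -1.19 ± 0.21 with a 95% interval from -1.68 to -0.70 (edgeR adjusted p = 0.115). The Ucp3 row shares 1851 bases with AK040808 on the other strand, a row of 26 to 72 reads, and without strand in the counting their reads could not be told apart there. Ucp3 was rank 78 by p among the tested rows, and DESeq2 gave an adjusted p of 0.00143. Leaving out any 1 library kept the log2 fold change between -1.27 and -1.04.

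Ucp2 encodes a carrier of the same family that is found in many cell types, immune cells among them (chromosome 7, 107641873 to 107650529). It lies beside Ucp3 on the same strand, with 6931 bases between the rows. Ucp2 was at 46.9 and 47.1 CPM in mutants 1 and 3, and at 209.6 CPM in wild type 1 and 86.2 CPM in wild type 2. Both mutants were lower than both wild types, yet wild type 1 was 2.43 times as high as wild type 2, and in the authors' deposited table that ratio is 2.48. The log2 fold change was -1.65 ± 0.39 with a 95% interval from -2.55 to -0.76 (edgeR adjusted p = 0.209, DESeq2 adjusted p = 0.000868). It became -0.87 without wild type 1, -2.16 without wild type 2, -1.60 without mutant 1 and -1.605 without mutant 3. The direction thus held, and the size rested on the wild type used. The summed level of 5 macrophage markers was 139 and 102 CPM in mutants 1 and 3 and 134 and 89.5 CPM in wild types 1 and 2, and that of 6 endothelial markers was 424 and 553 against 551 and 492 CPM. Both sums overlapped between the groups, with wild type 1 above wild type 2 in each, and their part in the level of Ucp2 was not tested.

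The windows in front of the Ucp3 and Ucp2 starts are shown because these neighbouring genes had the lowest fold changes of the 9. Each runs 250 bases up to the last base before the start, 5′ to 3′ on the gene's strand, from RefSeq on build GRCm38.p6, a later build than that of the read table. Capitals mark motif matches.
Ucp3, chr7:100472741-100472990, plus strand: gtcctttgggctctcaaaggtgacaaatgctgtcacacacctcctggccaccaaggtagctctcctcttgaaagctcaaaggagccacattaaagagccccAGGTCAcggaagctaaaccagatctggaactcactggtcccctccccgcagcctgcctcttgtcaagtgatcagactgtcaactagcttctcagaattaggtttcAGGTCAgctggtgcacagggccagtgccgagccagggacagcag
Ucp2, chr7:100493108-100493357, plus strand: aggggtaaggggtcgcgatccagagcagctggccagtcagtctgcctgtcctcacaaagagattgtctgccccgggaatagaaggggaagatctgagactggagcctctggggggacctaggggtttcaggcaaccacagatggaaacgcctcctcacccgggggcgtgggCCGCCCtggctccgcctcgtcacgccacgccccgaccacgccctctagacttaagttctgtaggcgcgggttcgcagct
Both strands were searched for the PPAR-RXR direct repeat AGGTCANAGGTCA, the oestrogen-related receptor element TCAAGGTCA, the shorter AGGTCA that both contain, the GC box GGGCGG, the E box CACGTG and the TATA box TATAAA. The Ucp3 window holds 2 copies of AGGTCA, whose first bases lie at -149 and -44 counted back from the start, and 3 CG dinucleotides. The Ucp2 window holds 1 GC box on the other strand at -79, shown as its complement, and 16 CG dinucleotides. Of 32851 RefSeq windows of this length, 14.0% hold AGGTCA, 32.7% a GC box, 0.387% the oestrogen-related receptor element and 0.0335% the direct repeat, and the median number of CG is 6. The 2 neighbours thus differ in these letters, with fewer CG than the Ucp3 window in 29.0% of all windows and fewer than the Ucp2 window in 74.6%. Windows were found for 7 of the 9 genes, all but Ppargc1b and Angptl4. Ppara, Ppard and Esrra hold GC boxes and 27, 22 and 22 CG, and the Ppargc1a window holds 5 CG and none of the 6 motifs. Esrrg has 4 listed starts, with 9 to 22 CG. Of its windows, that of start 1 holds a TATA box, those of starts 3 and 4 hold GC boxes, and that of start 2 none. A match says only that the letters are there.

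Angptl4 encodes a secreted inhibitor of lipoprotein lipase that PPARs switch on when fatty acids are plentiful (chromosome 17, 33911845 to 33918451). It was the least read of the 9, at 7.61 and 11.9 CPM in mutants 1 and 3 and at 17.5 and 18.5 CPM in wild types 1 and 2. Both mutants were below both wild types, and the wild types were close together while mutant 1 had 0.638 times the level of mutant 3. The log2 fold change was -0.89 ± 0.27 with a 95% interval from -1.52 to -0.25 (edgeR adjusted p = 0.318, DESeq2 adjusted p = 0.281). It was -0.56 without mutant 1 and -1.21 without mutant 3, not called in either. It was called without wild type 1 (edgeR adjusted p = 0.01899) and without wild type 2 (0.0213). Without wild type 1 and without wild type 2, 4 and 6 of the 9 genes were called, beside 12.2% and 22.0% of all tested rows.

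**Figure D3:**
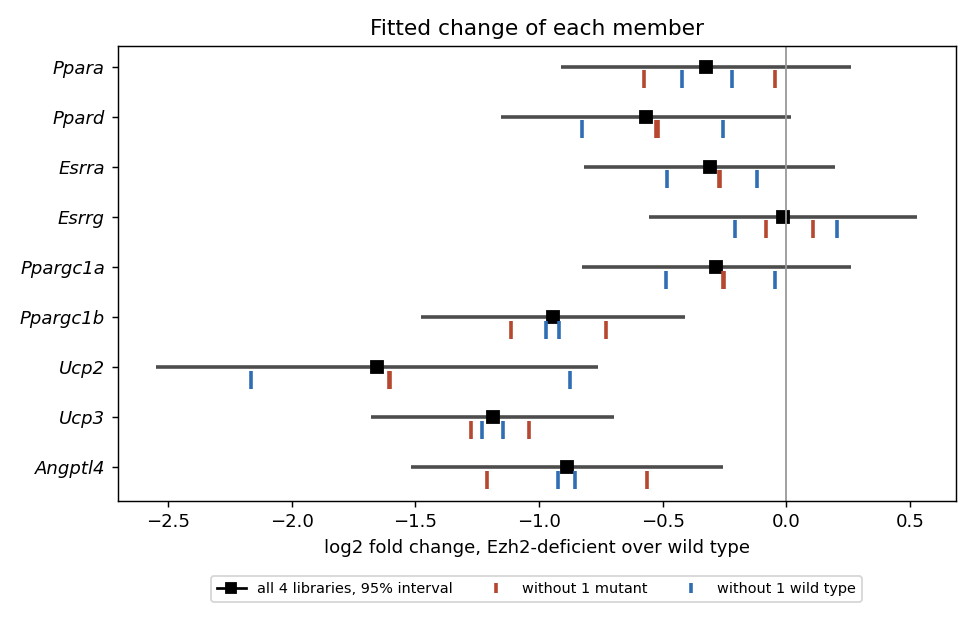
Fitted log2 fold change of mutants over wild types (horizontal axis) for the 9 genes; squares and bars are the fit on 4 libraries with its 95% interval, and ticks below each bar are fits without 1 mutant (red) or 1 wild type (blue). The intervals of Ppargc1b, Ucp2, Ucp3 and Angptl4 lie below 0, and the ticks of Ucp2 run from -2.16 to -0.87.

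The order of the levels differed between the groups when CPM was divided by length, taken as merged exons of the GENCODE M21 annotation. In the wild types the mean CPM per kilobase was 37.1 for Ucp2, 31.2 for Esrra and 29.1 for Ucp3, and these 3 overlapped from library to library. The other 6 genes followed at 4.71 to 8.63 CPM per kilobase, with Ppard and Ppargc1b at the top and Ppargc1a at the bottom. In the mutants Esrra led at 25.2 CPM per kilobase, above Ucp3 at 12.8 and Ucp2 at 11.8 in both libraries, and the last 2 overlapped. The remaining 6 lay at 2.95 (Angptl4) to 5.84 (Ppard) CPM per kilobase. Since the nuclease acts more on abundant transcripts, these are orders of reads, not of RNA. Between the mutants the TMM-scaled CPM of Ppard, Ppargc1a, Esrra and Ucp2 differed least, with mutant 1 at 0.996 to 1.001 times mutant 3.

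The differences above are relative to the TMM scaling. Scaling by total reads, without TMM, shifted the median over all rows by -0.28 on the log2 scale. With it the log2 fold changes were -1.95 for Ucp2 and -1.46 for Ucp3, both called (edgeR adjusted p = 0.00151 and 0.0101), -1.21 for Ppargc1b, -1.20 for Angptl4 and -0.29 for Esrrg. In the authors' deposited table, which compares single libraries on total reads, 6 of the 9 genes (Ppard, Ppargc1b, Esrra, Ucp2, Ucp3 and Angptl4) had a ratio below 1 with a p under 0.001 in all 4 pairs of a mutant and a wild type. The same held for 11.9% of the 15896 rows with all 4 ratios, and a p of a single pair of libraries does not measure the spread between hearts.

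Genes known as PPAR targets in fatty acid handling were mostly lower as well. Of 39 listed, 38 were tested, 31 had a log2 fold change below 0 (49.5% of all rows did) and the median was -0.27. In edgeR 1 passed over all rows, Pdk4, against 0.0248% of all rows called lower. At an unadjusted p under 0.05 12 were lower and 1 higher, against 4.38% and 6.49% of all rows. The list was chosen with earlier results of these data known, so these shares are no test of it. Pdk4, whose kinase restrains pyruvate oxidation, fell from 373 ± 35.6 CPM in the wild types to 108 ± 12.1 in the mutants (SD, n = 2; log2 fold change -1.78 ± 0.23, edgeR adjusted p = 0.0463). That call was lost with RLE or upper quartile scaling, with the filter of 50 reads, without sex-linked and abundant rows, with 1 row per span and without mutant 1. Among the others, chosen after their values were seen, Acot1, an acyl-CoA thioesterase gene, had 140 and 166 reads in mutants 1 and 3, against 376 and 333 for the wild types. It passed by DESeq2 (adjusted p = 0.0415) and not by edgeR (0.169). The 1 gene of this list higher at an unadjusted p under 0.05 was G0s2, an inhibitor of triglyceride lipase. It had 928 and 937 reads against 726 and 513 (edgeR adjusted p = 0.359). Fabp4 was not in this list and is given with the adipocyte markers below.

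The partners and coregulators of the receptors were mostly lower too. Of 24 tested, 20 had a log2 fold change below 0 (49.5% of all rows did), the median was -0.28, and 0 passed by edgeR or DESeq2. At an unadjusted p under 0.05 (edgeR) 0 were higher and 1 gene was lower, against 6.49% and 4.38% of all rows. That gene was Ncoa1, a coactivator of nuclear receptors, at 13.96 ± 1.38 CPM in mutants, against 21.3 ± 1.74 in wild types (edgeR adjusted p = 0.378). Its relative Ncoa2 was at 28.7 ± 5.15 and 39.8 ± 2.46 CPM (0.505). Among 22 tested ERR and PGC-1 targets of oxidative metabolism, 15 were below 0 with a median of -0.28. Of these 22, 0 passed by edgeR, by DESeq2 or at an unadjusted p under 0.05. Both mutants were below both wild types in 8 of the 22, against 22.4% of all rows. Their summed level overlapped between the groups, at 28583 and 28593 CPM in mutants 1 and 3. It was 33104 CPM in wild type 1 and 24444 CPM in wild type 2, which lay below both mutants. Idh3a, a subunit of the tricarboxylic acid cycle enzyme isocitrate dehydrogenase, was at 278 ± 11.5 against 377 ± 21.2 CPM (edgeR adjusted p = 0.516), and the fumarase gene Fh1 at 135 ± 7.39 against 177 ± 30.96 CPM (0.567). Cox5b, also listed, was not matched to a row.

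Factors of mitochondrial biogenesis went both ways. Of 11 tested, 6 were below 0 and the median was -0.13, with 0 passing by edgeR, by DESeq2 or at an unadjusted p under 0.05. Gabpb1, a subunit of nuclear respiratory factor 2, was at 6.43 ± 0.413 CPM in mutants, against 8.92 ± 0.903 in wild types. Ssbp1, which coats single-stranded mitochondrial DNA, had 259 and 221 reads in mutants 1 and 3, against 82 and 197 for the wild types, of which wild type 1 stood low. In the lipoprotein lipase list 6 of 9 were below 0 with a median of -0.03, and 0 passed by edgeR or DESeq2. Lpl itself, the lipase that Angptl4 inhibits, was at 1883 ± 178 against 2774 ± 107 CPM (edgeR adjusted p = 0.494), and the related Angptl7 had 134 and 63 reads against 51 and 44, the 1 member at an unadjusted p under 0.05. Among the uncoupling protein relatives, Slc25a14 and Slc25a30 were higher in both mutants than in both wild types, as were 22.3% of all rows. Slc25a27 overlapped, at a log2 fold change of -0.04 ± 0.55 (SE). Slc25a14 had 31 and 33 reads in mutants 1 and 3, against 16 and 22 for the wild types, and Slc25a30 was at 9.94 ± 0.138 against 8.76 ± 0.354 CPM. In this list 0 of 3 tested passed by edgeR, by DESeq2 or at an unadjusted p under 0.05. Ucp1, the uncoupling protein of brown fat, had 19 reads in mutant 1 and 0 in the other 3 libraries.

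**Figure D4:**
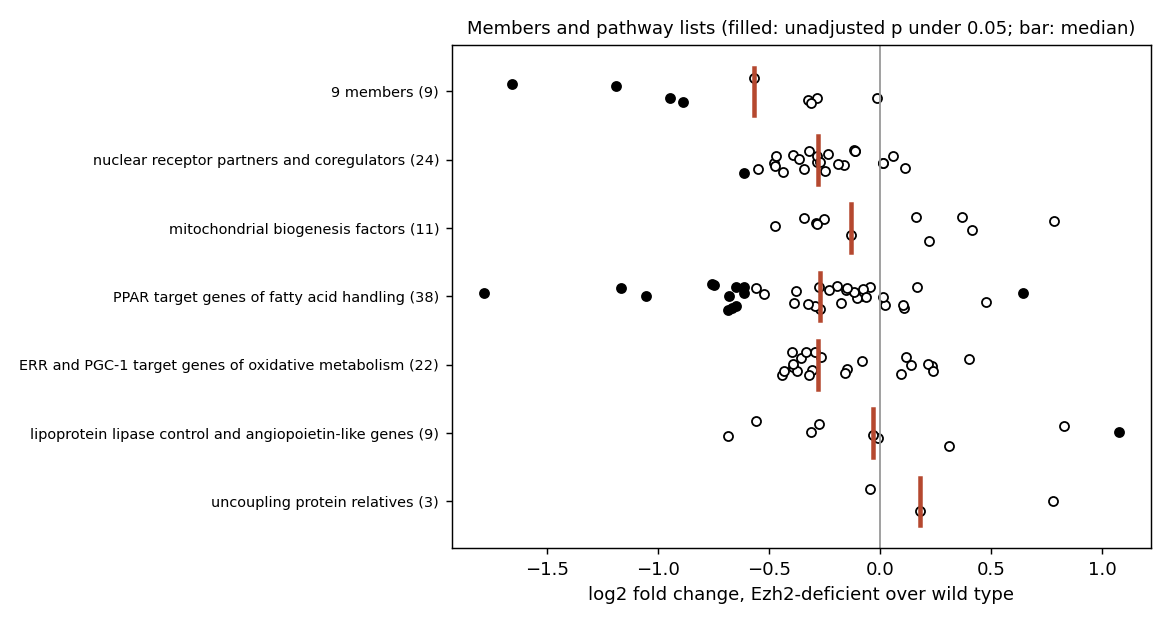
Log2 fold change of mutants over wild types (horizontal axis) for the 9 genes and the tested genes of 6 pathway lists, with their number in parentheses; filled points have an unadjusted p under 0.05 and the red bar is the median. The medians run from -0.57 for the 9 genes to 0.18 for the uncoupling protein relatives.

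Markers of other tissues differed between the libraries. Of the 8 skeletal muscle markers 5 had a fitted increase at an unadjusted p under 0.05 (edgeR), against 6.49% of all rows. Both mutants were above both wild types in only 1 of the 8, as in 22.3% of all rows. Tnni2, for example, had 682 and 5 reads in mutants 1 and 3, against 21 and 18 for the wild types. Ckm is also expressed by heart muscle. The 7 markers without it summed to 264 CPM in mutant 1, 16.5 in mutant 3, 19.2 in wild type 1 and 19.8 in wild type 2, so mutant 1 alone stood apart. The part of these markers in the level of Ucp3, a gene of skeletal muscle too, was not tested. Of the 8 adipocyte markers, the 7 without Fabp4, which endothelium also expresses, summed to 14.5, 8.52, 5.92 and 0.704 CPM in mutants 1 and 3 and wild types 1 and 2, with Lep at 0 reads in all 4 and Adipoq at 9, 8, 3 and 0. The adipocyte sum was thus higher in both mutants than in both wild types. Car3 made up 9.846, 3.955, 2.805 and 0.503 CPM of it in the same order. Cfd and Adipoq were also higher in both mutants, while Plin1, Cidec and Retn overlapped between the groups. Left out of the sum, Fabp4 was at 321.7 and 461.4 CPM in mutants 1 and 3. In wild types 1 and 2 it was at 133.1 and 273.9 CPM (edgeR adjusted p = 0.409), so both mutants were above both wild types. The part of the adipocyte markers in the results was not tested. The 4 atrial markers summed to 3453 and 3084 CPM in mutants 1 and 3, against 431 and 178 for the wild types. Of this, Nppa, which stressed ventricle also expresses and which was called (edgeR adjusted p = 0.0316), made up 3312, 2972, 375.5 and 172.9 CPM. The other 3 summed to 140.5, 113, 55.3 and 5.48 CPM in the same order. The part of the atrial markers in the results was not tested either. The fibroblast markers overlapped, at 224 and 266 against 325 and 258 CPM.

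The rows nearest in pattern were sought by the Euclidean distance between log2 CPM profiles centred over the 4 libraries, among 6094 autosomal rows of at least 10 CPM for Ucp3 and 6093 for Ppargc1a. Nearest to Ucp3 were Fosl2 at a distance of 0.0984, Wnk4 at 0.128 and Vgll4 at 0.196. They encode a subunit of the transcription factor AP-1, a kinase that controls ion transport and a cofactor of TEAD factors. Fosl2 stood at 13.8 ± 2.46 CPM in mutants, against 31.3 ± 2.07 in wild types (SD, n = 2; edgeR adjusted p = 0.143). Nearest to Ppargc1a were Atp6v1a, a subunit of the vacuolar proton pump, at 0.0475, Phtf2 at 0.0551 and Intu at 0.0624. In Atp6v1a wild type 2 stood apart at 18.7 CPM over 13.7 in wild type 1 and 12.97 and 13.6 in mutants 1 and 3. With 4 libraries, many rows can share such a profile.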

How the data were processed

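RNA sequencing libraries of the right ventricle from 2 Ezh2-deficient and 2 wild-type adult mice were grouped by their titles. Per the labels' protocols, polyadenylated RNA was made into libraries that a duplex-specific nuclease then digested in part. The reads were processed with TopHat 1.2.0 and Cufflinks on mm9, per the submitters' processing notes. How rows were counted, whether strand was used and which annotation served are not stated in these sources. Per the file headers, the authors deposited raw read counts per gene row, a normalised value that equals CPM on total reads, and a ratio and a p-value for each pair of single libraries. Starts are printed counted from 1.

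Counts were tested with edgeR 4.0.16 in R 4.3.3 (quasi-likelihood, filterByExpr, TMM, Benjamini-Hochberg over 16128 rows, two-sided, threshold 0.05, 4 libraries, no covariate). SE and 95% intervals came from the F statistic. The script was tested on simulated data. Alternatives were DESeq2 1.42.0, limma 3.58.1 (voom), other scalings, filters and rows, leaving out each library, and, chosen after seeing the data, 1 row per span. Where 1 library was left in a group, its spread was taken from the other group. Labels name no litter or batch, so p-values measure the spread between these 4 samples.

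The 9 genes and the lists were chosen with earlier results of these data known. Beside the 9, the rule named per pathway list the called genes (up to 4) or, with none called, the 2 with the smallest p, and further the 3 rows nearest to Ucp3 and to Ppargc1a. Older row names were used for Kat2a, Mlycd, Plin2, Plin5, Eci1, Hilpda, Perm1, Twnk, Lmf1, Plin1 and Lyz2. Of the pathway lists, Lpl and Vldlr stand in both the target and the lipase list, and Cidea and Ckm stand in a pathway and a marker list. Marker lists were heart muscle, adipocyte, brown adipocyte, skeletal muscle, endothelial, fibroblast, macrophage and atrial genes. Both brown adipocyte markers, Ucp1 and Cidea, summed to 29.0, 36.5, 34.4 and 23.2 CPM in mutants 1 and 3 and wild types 1 and 2.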

Additional observations from a re-analysis of the deposited data

How the results depend on the processing

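The number of calls over all rows was 21 (17 higher, 4 lower), and became 205 by DESeq2, 156 with total count scaling (76 higher, 80 lower), 317 with no filter on low counts and 3 without sex-linked rows and rows above 1% of a library. Without 1 library it ranged from 63 to 3675. Of the 9 genes 0 were called, but 2 (Ucp2 and Ucp3) by DESeq2, with total count scaling and with no filter, and 0 to 6 without 1 library. Their median log2 fold change of -0.57 was -0.85 with total count scaling and -0.82 to -0.49 without 1 library. The number of PPAR targets called, 1, was 2 by DESeq2, 3 with total count scaling and with no filter, 0 to 13 without 1 library, and 0 with RLE scaling, with upper quartile scaling, with at least 50 reads in 2 libraries, without sex-linked and abundant rows and with 1 row per span. Esrrg, at -0.01, turned to 0.0035 with the filter of 50 reads and lay between -0.21 (without wild type 1) and 0.21 (without wild type 2) without 1 library, with 0.11 without mutant 3. The other 8 genes kept a log2 fold change below 0 in all 14 alternatives, and Ucp2 and Ucp3 were called in 5 of them each, Ppargc1b and Angptl4 in 2, Ppard and Esrra in 1, and Ppara, Ppargc1a and Esrrg in 0. The cause of these shifts was not tested, beyond that each left-out library leaves a single heart in 1 group. No paired analysis was possible because the groups share only the number 1 and the labels name no litter or day.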
